A study of Gorilla gorilla gorilla with 14 samples.

Results

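The 7044 regions described here are stretches of chromatin, away from gene starts, that were open in the radial glia of gorilla cerebral organoids and at least 3-fold less accessible in both basal intermediate progenitors and neurons. Radial glia are the stem cells of the developing cortex. Apical radial glia line the ventricle, basal radial glia have left that surface, basal intermediate progenitors are committed to making neurons, and neurons are the end product. Distal accessible regions are where transcription factors bind enhancers, which can act on genes far along the chromosome, and their accessibility is more specific to a cell type than that of promoters.

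The assay was ATAC-seq on bulk sorted cells, which reads open chromatin from where a transposase places adapters in the DNA. The cells were sorted by flow cytometry from organoids at week 8 of culture, all grown from a single induced pluripotent stem cell line, GC1. The groups were neurons (N, labelled BCL11B+ neuron, n = 4), basal intermediate progenitors (bIP, n = 5), basal radial glia (bRG, n = 2) and apical radial glia (aRG, n = 3). The labels name no treatment. No label states whether the replicates are separate cultures. The p-values therefore cover the spread between these libraries alone, and that spread may be technical. The library names form a pair of consecutive runs, called the first and the second library series here. The second holds N replicates 3 and 4, bIP replicates 4 and 5, both bRG libraries and aRG replicate 3, and the first holds the others. The deepest library was aRG replicate 1, with 26661992 counts, and the shallowest bIP replicate 3, with 12836073.

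Members were chosen from the counts themselves. Counts were scaled to CPM, counts relative to the total of each library, and a region was kept when its listed gene lay more than 1000 and at most 200000 bp away. Its mean had to reach 2 CPM over the 5 radial glia libraries and at least 3 times the bIP mean and the N mean, with the N mean below 1.5 times the bIP mean. Of 204257 table rows with a gorilla position, 176467 were distal in this sense, and 66328 distinct distal regions reached 2 CPM in radial glia. The 7044 members were 10.6% of those 66328. Because the rule used the differences between radial glia, bIP and N, these differences at the members are given as descriptions, without a test.

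Markers set radial glia apart from bIP and N. The sums of radial glia and of intermediate progenitor markers also set N apart from bIP, but the sum of the neuron markers did not. Summed over the promoter regions of SOX2, PAX6, HES1, VIM and NES, the level was 76.4 to 90.0 CPM in N, 113 to 164 CPM in bIP, 237 to 245 CPM in bRG and 260 to 264 CPM in aRG. The 3 measured intermediate progenitor markers (EOMES, NHLH1 and INSM1) summed to 96.0 to 114 CPM in N, 141 to 192 CPM in bIP, 76.9 and 79.9 CPM in bRG and 60.2 to 73.5 CPM in aRG. The 5 neuron markers summed to 176 to 198 CPM in N, 162 to 210 CPM in bIP, 72.0 and 75.4 CPM in bRG and 57.7 to 76.5 CPM in aRG. BCL11B, named in the label of the neurons, held 18.1 to 23.7 CPM at its promoter in N and 21.0 to 24.9 CPM in bIP. TBR1 held 42.5 to 46.5 CPM in N and 48.1 to 72.0 CPM in bIP, while STMN2, a gene of neuronal microtubules, held 54.0 to 59.9 CPM in N and 31.9 to 50.3 CPM in bIP. NEUROD6 was also higher in N, at 28.1 to 32.9 CPM against 24.3 to 25.7 CPM in bIP. NEUROD2 overlapped, at 30.8 to 45.2 CPM in N and 29.7 to 39.1 CPM in bIP. Of markers of other cells, GABAergic promoters summed to 42.4 to 77.4 CPM over all libraries, mesenchyme to 25.5 to 59.4 CPM, choroid plexus to 5.74 to 21.2 CPM, oligodendrocyte lineage to 11.3 to 16.9 CPM, pluripotent cells to 1.31 to 4.27 CPM and microglia (1 of 3 promoters measured) to 0.214 to 2.48 CPM. No measured list was at 0 in any library.

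Members took 0.976, 0.856, 1.48 and 0.711% of the counts of N replicates 1 to 4, a mean of 1.01 ± 0.335% (SD, n = 4). In bIP replicates 1 to 5 they took 2.10, 2.04, 1.93, 1.81 and 1.02%, a mean of 1.78 ± 0.439% (n = 5). The share was 7.23 and 6.87% in the bRG libraries and 7.80, 7.70 and 6.59% in the aRG libraries. Every radial glia library lay far above every bIP and N library, and bIP replicate 5 was the lowest of its group, within the range of N. With bIP replicate 5 left out the bIP mean was 1.97 ± 0.131%, and without N replicate 3, the highest of its group, the N mean was 0.847 ± 0.133%. In bulk samples, fewer cells with an open region and a less open region in each cell cannot be told apart.

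**Figure D1:**
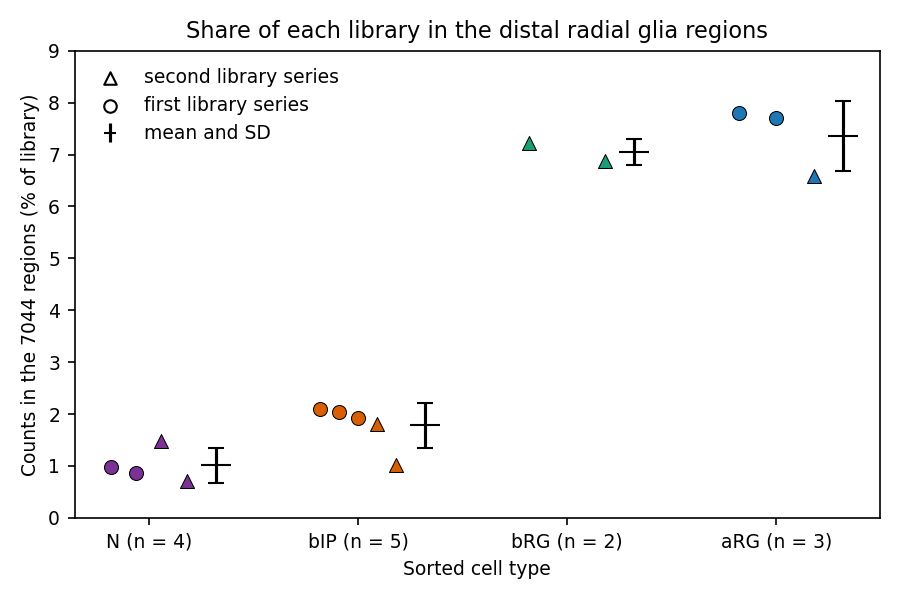
Percent of each library's counts that fell in the 7044 distal regions, by sorted cell type; triangles are libraries of the second series, circles of the first, and bars give the mean and SD of a group. The 4 N libraries lie between 0.711 and 1.48%, the 5 bIP libraries between 1.02 and 2.10%, and the 5 radial glia libraries between 6.59 and 7.80%.

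By group means members were low in bIP and mostly lower in N, but single libraries overlapped. The median over members was 1.65 CPM in N replicate 3, above the 1.63 and 0.929 CPM of bIP replicates 4 and 5. The median level was 1.07 CPM in N, 1.74 CPM in bIP and 7.11 CPM in radial glia, and the highest radial glia mean of any member was 90.4 CPM. The median ratio of bIP to radial glia was 0.259, with quartiles of 0.216 and 0.296, and that of N to radial glia was 0.155 (0.110 and 0.213). The N mean lay below the bIP mean in 6392 members (90.7%), at a median N to bIP ratio of 0.622. The rule uses these means, and the share was not counted for other regions. A level of at most 0.1 times that of radial glia was seen in 1376 members (19.5%) in N and in 2 members in bIP, so some signal was usual in bIP.

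In 6811 members (96.7%) the lowest of the 5 radial glia libraries lay above the highest of the 9 bIP and N libraries. The rule required a 3-fold margin between the means of these same libraries, which favours such a separation. The share was not counted for other regions. The limit on N against bIP removed few regions, since 7075 would have passed without it. Of all distal regions, 7909 met the level and the 3-fold margin over bIP alone and 18787 met those over N alone. At most 249 members stood at or under 3 counts in any library other than N replicate 4, where 373 did.

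At the edges of the rule, regions on either side were alike. The members with the lowest radial glia means were listed to AC021723.1 (2.00 CPM) and SLC22A2 (2.01 CPM), and just below the limit lay regions of AL133445.2 and LINC02641, both 2.00 CPM when rounded. At the 3-fold margin over bIP, members listed to AC110620.2 and AC012370.1 and excluded regions of LINC01339 and NDUFS4 all had a bIP to radial glia ratio of 0.333. At the margin over N the members of AC106883.1 and TTC23L stood at an N to radial glia ratio of 0.333, and the excluded regions of RPS4XP15 and RNU6-1327P at 0.333 and 0.334. At the limit of N over bIP the members of AC022023.1 and GCSHP5 both stood at 1.49, and the excluded regions of SAMMSON and LINC02177 at 1.51 and 1.52.

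The region with the highest radial glia level lies on chromosome 6 (gorGor6, 77528655 to 77531002), 42621 bp from the non-coding gene HMGN3-AS1. It held 5.33, 4.99, 5.79 and 1.54 CPM in N, 27.1, 27.2, 14.3, 27.9 and 10.2 CPM in bIP, 76.9 and 78.2 CPM in bRG and 112, 108 and 77.4 CPM in aRG. The groups N, bIP and radial glia do not overlap, and among the radial glia the first series aRG libraries are the highest while aRG replicate 3 matches bRG. The ratios to radial glia were 0.0488 in N and 0.236 in bIP.

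The next in level lies on chromosome 10 (116998444 to 117000729) beside the pseudogene RPS15AP5, and the nearest protein-coding promoter region, 111172 bp away, is that of FGFR2, a receptor for fibroblast growth factors that keep radial glia dividing. It held 10.4, 8.60, 11.3 and 11.7 CPM in N, 27.6, 25.2, 18.9, 23.0 and 13.9 CPM in bIP, 66.4 and 63.1 CPM in bRG and 91.3, 92.6 and 68.8 CPM in aRG. Another stands on chromosome 17 (61060685 to 61063492), listed to RNA5SP181 and 118501 bp from the promoter region of SLC1A3, the glutamate transporter GLAST of radial glia and astrocytes. It held 4.87, 4.92, 7.33 and 3.51 CPM in N, 19.3, 17.3, 14.6, 16.3 and 7.81 CPM in bIP, 76.0 and 63.8 CPM in bRG and 78.4, 79.5 and 72.6 CPM in aRG. In each of these regions the libraries fell into the same order of groups, with bIP replicate 5 the lowest bIP library.

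Other members among the 12 highest had radial glia means from 62.2 to 73.2 CPM. They include a region 4828 bp from EFNB2, which encodes an ephrin ligand, one 4656 bp from TTYH1, a membrane protein of radial glia, and one of AC110015.1 that lies 253908 bp from the promoter region of CDH2, the N-cadherin of the apical junctions. Further ones lie toward SALL3, a zinc finger transcription factor, at AC044873.1, toward SRGAP3, a regulator of Rac, at SRGAP3-AS3, and at EIF4E3. Their ratios of N to radial glia ran from 0.0637 (AC044873.1) to 0.258 (TTYH1), and those of bIP to radial glia from 0.234 (AC044873.1) to 0.330 (AC099791.3).

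**Figure D2:**
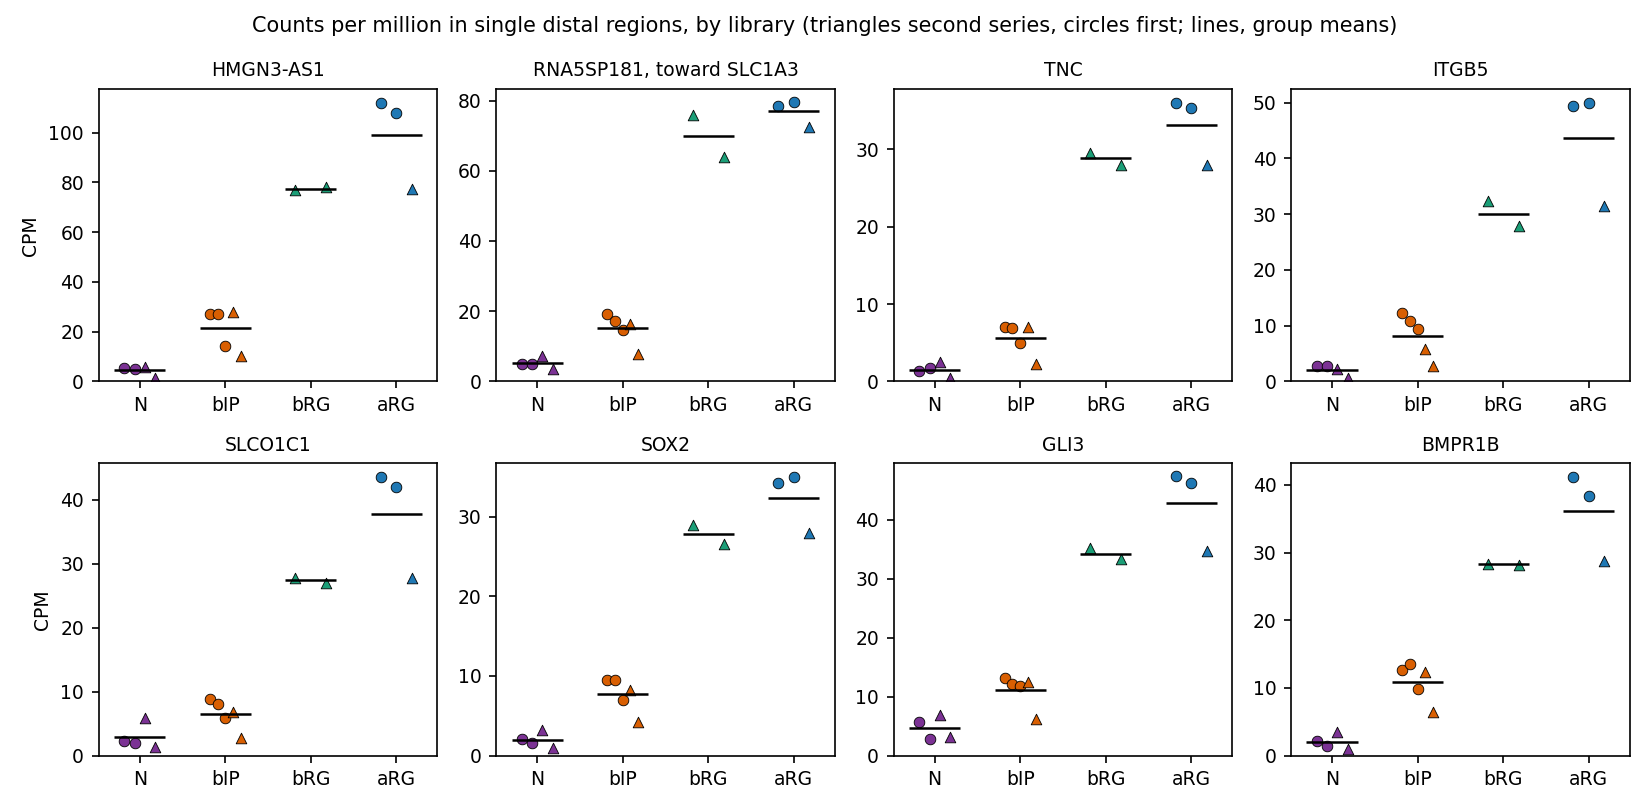
CPM of 8 single members in each library, with N, bIP, bRG and aRG from left to right; triangles are the second library series, circles the first, lines the group means, and the axes start at 0. In the HMGN3-AS1 panel N lies between 1.54 and 5.79, bIP between 10.2 and 27.9, bRG at 76.9 and 78.2 and aRG between 77.4 and 112; in the panels of TNC, ITGB5 and SLCO1C1 the bRG libraries lie close to aRG replicate 3.

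Some genes linked to basal radial glia had members at many of their distal regions. Of the 50 distal regions of at least 2 CPM in radial glia that were listed to the 16 genes of this list, 16 (32%) were members, at 8 genes, beside 10.6% of all such regions. TNC and SLCO1C1 had 5 members each, and every other gene of the list with members had 1. HOPX, FAM107A and PDGFD were among the genes without any. All 5 distal regions listed to TNC, which encodes the matrix protein tenascin C, were members, with radial glia means from 3.92 to 31.4 CPM. The strongest, 77671 bp from TNC (chromosome 9, 85934542 to 85935766), held 1.36, 1.73, 2.48 and 0.471 CPM in N, 7.05, 6.90, 4.91, 7.04 and 2.2 CPM in bIP, 29.5 and 28.0 CPM in bRG and 36.0, 35.3 and 28.0 CPM in aRG. N and bIP overlap there, and radial glia lie apart from both.

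SLCO1C1, a transporter of thyroid hormone, had 5 members among 8 regions. The strongest (chromosome 12, 19756698 to 19758376) held 2.31, 1.94, 5.91 and 1.41 CPM in N, 8.79, 8.09, 5.92, 6.88 and 2.70 CPM in bIP, 27.8 and 27.0 CPM in bRG and 43.6, 42.0 and 27.8 CPM in aRG. N replicate 3 reaches into the bIP range and bIP replicate 5 into that of N. A region 3626 bp from ITGB5, an integrin subunit (chromosome 3, 121452771 to 121453871), held 2.68, 2.70, 2.19 and 0.643 CPM in N, 12.3, 10.9, 9.35, 5.78 and 2.70 CPM in bIP, 32.4 and 27.8 CPM in bRG and 49.4, 50.0 and 31.4 CPM in aRG. In bIP both libraries of the second series were below the 3 of the first. PTPRZ1, a receptor phosphatase that binds tenascin, had a member at 5.87 ± 1.57 CPM in N, 12.6 ± 2.17 CPM in bIP, 34.2 ± 1.12 CPM in bRG and 41.8 ± 8.13 CPM in aRG (SD, n = 4, 5, 2 and 3).

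Genes shared by all radial glia had 7 members among 38 listed regions (18.4%). SLC1A3 is the protein-coding gene with the most members near it, 11 of the 24 distal radial glia regions for which it had the nearest protein-coding promoter region within 200000 bp. These 11 lay 6066 to 118501 bp from that promoter and had radial glia means from 3.94 to 74.1 CPM. Summed, they held 23.3 CPM in N, 63.8 CPM in bIP and 260 CPM in radial glia, whereas the other 13 regions held 51.4 CPM in N, 78.9 CPM in bIP and 112 CPM in radial glia. TNC had 8 members of 14 regions, and KIRREL3, a cell adhesion molecule, 8 of 13. AKR1E2, TOX and DOK5 also had 8 each, and at WIF1, a secreted WNT inhibitor, all 6 regions were members. In all, 4225 members had a protein-coding promoter region within 200000 bp, spread over 2559 genes. Nearest promoters were sought only among the 10109 genes with a promoter region and a RefSeq protein-coding name. Closer coding genes can thus be passed over: a member listed 29225 bp from RBFOX1 had ALG1, 1734980 bp away, as its nearest. The same limit holds for the lists and runs below.

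The transcription factors of radial glia had 10 members among 214 listed regions (4.67%), at 6 of 49 genes. At SOX2, the factor that keeps neural stem cells undifferentiated, a member 3156 bp away (chromosome 3, 178121384 to 178122255) held 2.07, 1.53, 3.19 and 0.900 CPM in N, 9.48, 9.55, 6.93, 8.30 and 4.22 CPM in bIP, 29.0 and 26.6 CPM in bRG and 34.2, 35.0 and 28.0 CPM in aRG. The 3 sets of libraries do not overlap. At GLI3, the hedgehog pathway factor, a member 4114 bp away held 4.63 ± 2.02 CPM in N, 11.1 ± 2.80 CPM in bIP, 34.3 ± 1.33 CPM in bRG and 42.8 ± 7.0 CPM in aRG. NFIA, a factor of the switch to glia, and DMRT3, a factor of the cortical field, had members with radial glia means of 32.4 and 17.3 CPM.

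Signalling genes of the FGF, WNT, BMP and hedgehog pathways had 21 members among 150 listed regions (14%), at 11 of 29 genes. FGFR2 had 4 members among 13 regions, which summed to 19.2 CPM in N, 25.9 CPM in bIP and 99.4 CPM in radial glia, while its other 9 regions summed to 29.8 CPM in N, 66.3 CPM in bIP and 104 CPM in radial glia. BMPR1B, a BMP receptor, had 3 members among 24 regions, and the nearest to it, 6513 bp away, held 2.11, 1.39, 3.55 and 1.03 CPM in N, 12.6, 13.5, 9.82, 12.4 and 6.38 CPM in bIP, 28.3 and 28.2 CPM in bRG and 41.2, 38.4 and 28.8 CPM in aRG. FZD5, a WNT receptor, BOC, a hedgehog co-receptor, ETV5, a factor induced by FGF, and GAS1, a hedgehog co-receptor, had 1, 1, 3 and 3 members. Most distal regions of these genes were thus not members.

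Matrix, adhesion and cell shape genes had 9 members among 55 listed regions (16.4%), with 4 at VCAM1, a cell adhesion molecule, whose radial glia means ran from 2.21 to 12.1 CPM. Glial lineage genes had 4 of 29 (13.8%), at SLC1A2, a glutamate transporter of astrocytes, and SPARCL1, a matrix protein of astrocytes. The Notch pathway had 3 of 30 (10.0%), at RBPJ, the nuclear effector, DNER and NUMB, and the Hippo pathway 3 of 25 (12%), at AMOTL1 and CCN2. Neuron genes had 5 of 112 (4.46%), among them GRIN2B, a glutamate receptor subunit, and SOX5, while intermediate progenitor genes had 0 of 69. Only 1527 of all members were listed to a protein-coding name. With the nearest protein-coding promoter as a region's gene, intermediate progenitor genes had 5 of 169 (2.96%) and neuron genes 10 of 261 (3.83%). Glial lineage genes then had 7 of 75 (9.33%), the Notch pathway 8.05%, the Hippo pathway 13.8% and matrix genes 12.2%. Radial glia transcription factors had 7.2%, signalling genes 16.4%, shared radial glia genes 23.4% and basal radial glia genes 28%. These lists were drawn up with earlier results of these data known, and the shares were not tested.

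Members lay somewhat farther from their listed gene than other distal regions open in radial glia, and were narrower. The median distance was 28248 bp for members, 24100 bp for distal regions lost in N and not in bIP, and 20712 bp for the remaining ones. Within 10000 bp of the listed gene lay 21.7% of members, 25.3% of regions lost in N only and 29.9% of the rest. Median widths were 993, 1005 and 1100 bp in the same order. Between 5 and 20 CPM in radial glia, where levels are closer, the medians were 28351 bp and 1051 bp for members, 23548 bp and 1111 bp for regions lost in N only, and 18959 bp and 1274 bp for the rest. The distance is the authors' own, read here as the distance to the start of the gene. These contrasts are descriptions without a test.

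The share of members differed between chromosomes, from 3.21% of distal radial glia regions on chromosome 19 (31 of 965) and 4.14% on chromosome 22 (43 of 1038) to 12.6% on each of chromosomes 3, 4 and 14. Of all members, 81 (1.15%) had no position in the chimpanzee genome in the table, beside 586 (1.23%) of the distal regions in neither lost class.

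Members lay beside each other. When the next distal radial glia region along the chromosome was at most 2000 bp away, it was a member in 32.9% of cases after a member and in 7.48% after another region. With gaps of 10000 to 20000 bp the shares were 20.6 and 9.23%, and beyond 100000 bp they were 15.7 and 13.4%. Joined across gaps of at most 20000 bp, 1937 members (27.5%) formed 853 runs of at least 2, and 16 runs held 5 or more.

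**Figure D3:**
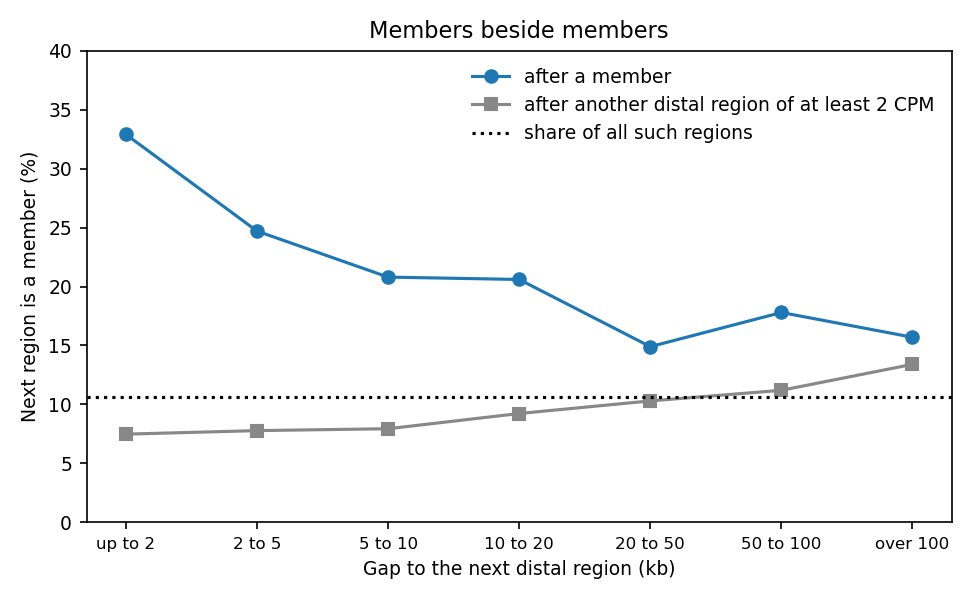
Percent of cases in which the next distal region of at least 2 CPM in radial glia is a member, against the gap to it in kb, after a member (circles) and after another such region (squares); the dotted line is the 10.6% of all such regions. After a member the share is 32.9% at the shortest gaps and 15.7% beyond 100 kb, against 7.48 and 13.4% after another region.

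The 5 longest runs held 6 members each and had as nearest protein-coding promoters those of NPAS3, FZD8, SOX2, ZFP36L1 and ERC2. The run toward SOX2 (chromosome 3, 177844086 to 177872113) lay 252801 to 279875 bp from its promoter region, and all 6 distal radial glia regions in it were members. Its regions had radial glia means from 2.31 to 22.6 CPM and summed to 8.49 CPM in N, 18 CPM in bIP and 77.1 CPM in radial glia. The strongest, at the start of the run, held 1.36 ± 0.695 CPM in N, 3.80 ± 1.40 CPM in bIP, 20.7 ± 1.47 CPM in bRG and 23.9 ± 3.72 CPM in aRG. The run nearest to FZD8, a WNT receptor, was also made of members only, 6 of 6, although it lay at least 694055 bp from that promoter. It summed to 6.29 CPM in N, 17.8 CPM in bIP and 85.4 CPM in radial glia. Toward NPAS3, a transcription factor of the developing brain, 6 of 7 regions were members, and they summed to 16.1 CPM in N, 28.8 CPM in bIP and 106 CPM in radial glia. A run of 5 lay toward CDH2, at 253908 to 280826 bp. Which gene a region acts on was not measured.

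The authors' consensus peak sets, 1 per cell type, were compared with the 6454 members off chromosomes 2A and 2B by any overlap. Their build is not stated in the sources used here, and no overlap was counted on 2A and 2B. An N peak overlapped 236 members (3.66%) and a bIP peak 693 (10.7%), whereas a bRG peak overlapped 5816 (90.1%) and an aRG peak 5856 (90.7%). A radial glia peak and neither a bIP nor an N peak overlapped 5517 members (85.5%). Of the remaining distal regions in neither lost class, N peaks overlapped 58.4%, bIP peaks 68.0%, bRG peaks 74.1% and aRG peaks 71.4%. The peaks come from the same libraries as the counts, and are no independent support.

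Because all libraries entered the rule, members were also chosen anew on a single library series and read in the other. The rule applied to the second series alone gave 8150 regions, 5583 of them among the 7044. In the first series, 7991 of the 8143 that could be tested (98.1%) were lower in bIP than in aRG by edgeR's quasi-likelihood test with Benjamini-Hochberg adjustment over all regions, with a median log2 difference of −1.75. The background was 23.3% of all regions tested and 46.0% of distal regions of at least 2 CPM in radial glia. In N against aRG 8102 (99.5%) were lower, at a median of −2.82, beside 30.0% of all regions and 57.7% of the distal ones.

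The rule applied to the first series alone gave 6171 regions, 5113 of them among the 7044. Read in the second series, 5992 of 6165 (97.2%) were lower in bIP than in radial glia, at a median log2 of −2.13, beside 15.7% of all regions and 33.7% of the distal ones. In N against radial glia 5849 (94.9%) were lower, at a median of −2.63, beside 24.1 and 51.6%. The step beyond bIP was less even. In N against bIP, 6124 (75.2%) of the regions chosen on the second series were lower in the first, beside 26% of all regions and 46.8% of the distal ones. Of those chosen on the first, 1670 (27.1%) were lower in the second, beside 20.9 and 35.4%. There 228 were higher in N, and the median N minus bIP log2 difference was −0.45 in the second series and −1.08 in the first.

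The rule set no limit on bRG against aRG, and no member passed in the fit with a term for library series. By edgeR's quasi-likelihood test 0 of 7044 members passed an adjusted p of 0.05, where 0.0% of all 200931 regions were called in either direction, and DESeq2 also called 0 members. At an unadjusted p under 0.05 there were 85 members (1.21%), beside 4.08% of all regions. The distal regions most like members were also low, at 1.95% of those lost in N and not in bIP and 2.52% of the rest. The median log2 difference was 0.01, with quartiles of −0.16 and 0.19, and the means lay within 2-fold in 6840 members (97.1%). The share of means within 2-fold was not counted for other regions. For 68.3% of members the 95% interval of this log2 difference stayed inside 2-fold, beside 41.0% of all regions tested. It stayed inside 4-fold for 99.8% of members, beside 92.4% of all regions. For members whose interval was not inside 2-fold, a difference of more than 2-fold lies within it.

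The share of counts in members was 7.05 ± 0.249% in bRG and 7.36 ± 0.671% in aRG, a difference of −0.313 points (exact permutation test, two-sided p = 0.6, where 0.2 is the smallest p that 2 against 3 libraries allow). The 6 members named for the smallest p had radial glia means of 2.11 to 12 CPM. A region of AC026202.1 held 5.08 and 5.47 CPM in bRG and 1.84, 1.82 and 2.91 CPM in aRG, and one of EMC2 held 7.42 and 11.1 CPM in bRG and 12.8, 11.4 and 17.5 CPM in aRG. Neither passed the adjusted threshold. With aRG alone as radial glia, 6187 members (87.8%) kept the rule, and with bRG alone 5920 (84.0%) did. In 5239 members (74.4%) aRG replicate 3 lay nearer to the bRG mean than to the mean of the other aRG libraries, with which it does not share a library series. The share was not counted for other regions, so it is not read as a trait of the members. The EOMES promoter, a marker of bIP, held 44.4 CPM in aRG replicate 3, near the 45.5 and 48.7 CPM of bRG. It held 21.2 and 23.4 CPM in aRG replicates 1 and 2, and its part in the nearness of aRG replicate 3 to bRG was not tested.

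The library series were also set against each other within bIP and within N. The rule used the means over these same libraries, so a library with low counts helps a region to pass, and the counts of members called describe the members and give no independent support for a difference between the series. In bIP, by edgeR's quasi-likelihood test 1191 members (16.9%) were lower at an adjusted p under 0.05, beside 5.47% of all regions, and 141 (2.0%) were higher, beside 8.47%. The median log2 difference was −0.41 over members and −0.08 over all regions. This balance rested on bIP replicate 5, without which it turned to 176 members lower and 223 higher, while without bIP replicate 1 there were 575 and 84, and without bIP replicate 2 there were 716 and 82. The count of higher ones was 78 without bIP replicate 3, 35 without bIP replicate 4, 257 without N replicate 3 and 261 without N replicate 4.

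At ENTPD1, an ectonucleotidase (chromosome 10, 91019911 to 91021147), a member held 0.977 and 0.338 CPM in the second series and 4.47, 4.78 and 3.97 CPM in the first series bIP libraries. Its bRG libraries held 13.4 and 9.27 CPM, and its aRG libraries 20.1, 20.6 and 11.8 CPM, of which the last is of the second series. The radial glia marker sum of bIP replicate 5 was 150 CPM, within the bIP range, and its neuron marker sum, 210 CPM, was the highest of all libraries. The part of these differences in the count was not tested.

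In the second series of N, 320 members (4.54%) were higher and 105 (1.49%) lower, beside 8.95 and 6.5% of all regions, with a median log2 of 0.13. Single N libraries moved these counts. Without N replicate 3 the balance turned, with 201 higher and 859 lower, and without N replicate 4 there were 884 and 30. The radial glia marker sums of N replicates 1 to 4 were 76.4, 84.3, 90.0 and 84.1 CPM, and their part in these counts was not tested. Without N replicate 2 there were 82 and 28, and 57 were lower without N replicate 1.

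The test of the difference between these series contrasts, that of bIP minus that of N, called 370 members lower (5.25%, beside 4.01% of all regions) and 9 higher (0.128%, beside 4.32%), with a median log2 of −0.51. The lower count was 49 without bIP replicate 5, 71 without N replicate 2, 187 without bIP replicate 1, 205 without N replicate 3, 219 without bIP replicate 2, 239 without aRG replicate 2, 802 without bIP replicate 4 and 1472 without N replicate 4. The higher count was 244 without N replicate 3, 14 without N replicate 1, 5 without N replicate 2 and 4 without bIP replicate 3. With N replicate 3 left out the balance turned, at 205 lower and 244 higher. The choice of members for low bIP and N means bears on this contrast as well.

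In radial glia 6359 members (90.3%) lay within 2-fold between the series, 82 were at least 3-fold higher in the second and 63 at least 3-fold lower. These counts were not made for other regions. Of the 82, 7 lay within the first 1946771 bp of chromosome 3. Among these, the members of AC066595.1 and CHL1-AS2 lay 123156 and 31530 bp from the promoter region of CHL1, a neural adhesion molecule. The member of CHL1-AS2 (161140 to 162378) held 3.55 and 3.43 CPM in the second and 0.289 and 0.208 CPM in the first series of N, and 3.87 and 1.98 CPM in the second and 0.227, 0.332 and 0.935 CPM in the first of bIP. Its bRG libraries held 13.2 and 13.8 CPM, aRG replicate 3 held 13.1 CPM, and aRG replicates 1 and 2 held 0.413 and 0.625 CPM. Here the rule was met through the second series alone. On chromosome 2B a member of AC097499.2 (11821093 to 11822284) did the reverse, with 0.610 and 0.641 CPM in bRG, 0.423 CPM in aRG replicate 3 and 7.69 and 8.19 CPM in the other aRG libraries.

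Promoters lay outside the rule, and those of genes listed for members were compared between the cell types, with radial glia as the mean of bRG and aRG. Of 2018 tested, 601 (29.8%) were lower in bIP than in radial glia and 237 (11.7%) higher by edgeR's quasi-likelihood test at an adjusted p under 0.05. Among 8190 genes listed only for other distal radial glia regions, 17.4% of promoters were lower and 17.0% higher, and among all 19291 promoters 16.9 and 12.7%. Of the 2018, only 874 were promoters of protein-coding genes, of which 24.7% were lower and 4.58% higher. Coding genes listed only for other distal radial glia regions had 15.4 and 8.5%, and all coding genes 14.2 and 6.45%. The share of lower promoters was 40.4% of the 151 genes with 3 or more members, 30.8% of the 318 with 2 and 28.5% of the 1549 with 1. These classes hold coding and other genes together. The medians of the log2 difference were −0.16 for genes with members and −0.05 for all, and the upper and lower quartiles for genes with members were 0.11 and −0.62.

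In N against radial glia, 894 of these promoters (44.3%) were lower and 387 (19.2%) higher, beside 34.5 and 21.2% for genes of other distal radial glia regions and 31.8 and 18.3% of all. In N against bIP, 606 (30.0%) were lower and 341 (16.9%) higher, beside 27.3 and 14.5%, and 22.3 and 13.7% of all. That last split held with DESeq2 size factors, at 623 lower (30.9%) and 308 higher (15.3%), but turned in a fit to fewer regions. The latter changes the scaling and the set of promoters together, and their parts were not tested. Fitted to regions of at least 10 CPM in 2 libraries, where differences of all shared regions moved by a median of 0.28, 286 of 1134 (25.2%) were lower and 383 (33.8%) higher in N than in bIP, beside 20.7 and 34.7% for genes of other distal radial glia regions. In that fit 636 (56.1%) were lower and 97 (8.55%) higher in bIP than in radial glia, after a shift of −0.11, beside 44.7 and 13.8% for genes of other distal radial glia regions. In N against radial glia 542 (47.8%) were lower and 243 (21.4%) higher, after a shift of 0.18, beside 37.9 and 26.9%. The promoters share their libraries with the members, and the differences between the classes of genes were not tested.

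**Figure D4:**
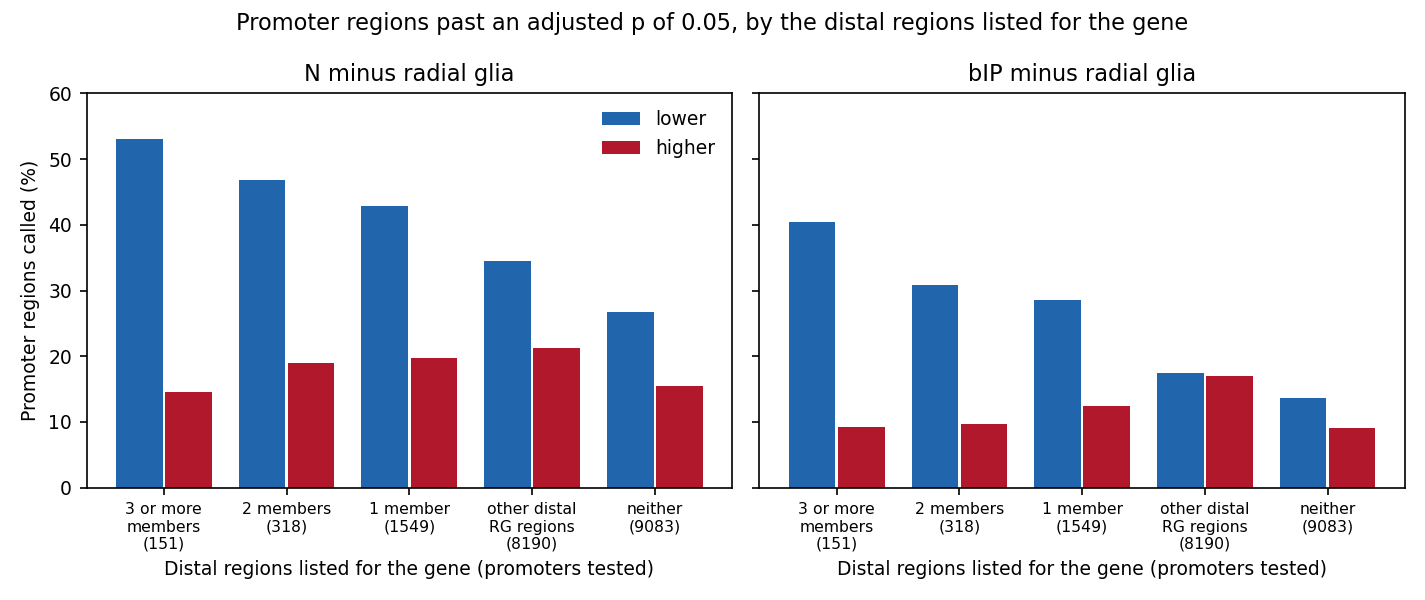
Percent of promoter regions called lower (left bar of a pair) and higher (right bar) in N (left panel) and bIP (right panel) than in radial glia at an adjusted p under 0.05, by how many members are listed for the gene; the number of promoters tested is in brackets, and the last classes are genes listed only for other distal radial glia regions and genes with neither. In bIP the lower share is 40.4% with 3 or more members and 17.4% for genes of other distal radial glia regions.

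The share of lower regions also varied with distance along the chromosome. Of 257 promoters within 5000 bp of a member, 34.2% were lower in bIP than in radial glia, and of 9439 promoters more than 200000 bp away 12.5% were. For distal radial glia regions that were not members, the shares were 62.9% within 5000 bp (n = 1903) and 29.0% beyond 200000 bp (n = 22706). In N against radial glia the promoters gave 47.1% and 27.2% at these distances, and the other distal regions 70.8% and 48.0%.

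**Figure D5:**
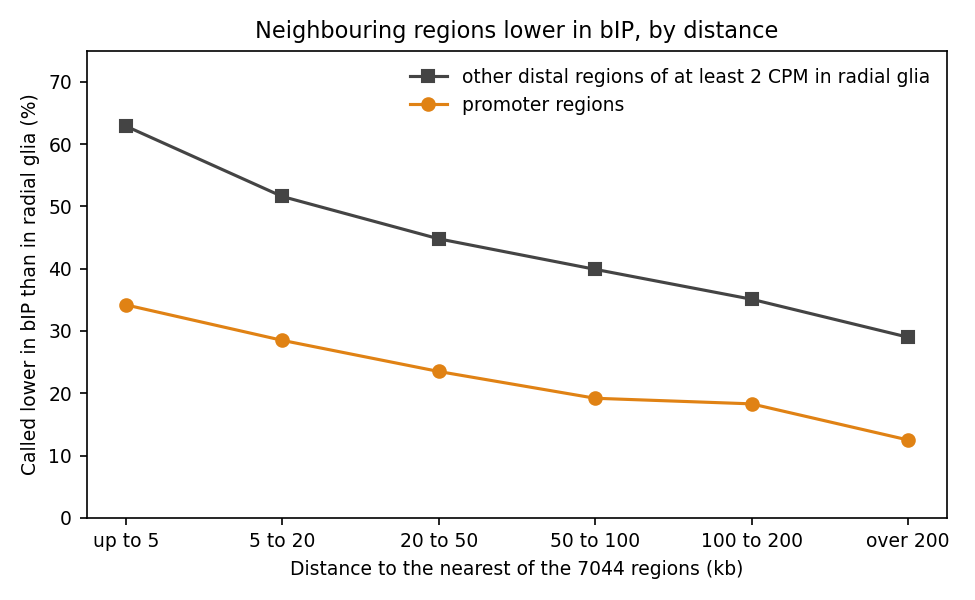
Percent of regions called lower in bIP than in radial glia at an adjusted p under 0.05, against the distance in kb to the nearest of the 7044 members, for other distal regions of at least 2 CPM in radial glia (squares) and promoter regions (circles). Within 5 kb the share is 62.9% of other distal regions and 34.2% of promoters, and at the largest distances it is 29.0 and 12.5%.

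Among protein-coding genes with members, some promoters were several-fold lower in bIP. SLCO1C1 stood at 0.939 ± 0.494 CPM in N (n = 4), 1.86 ± 0.671 CPM in bIP (n = 5) and 9.15 ± 0.671 CPM in radial glia (n = 5), a log2 difference of −2.49 ± 0.23 (SE) in bIP against radial glia (edgeR adjusted p = 1.45e-09). VCAM1 stood at 1.46 ± 0.574 CPM in N, 3.26 ± 1.07 CPM in bIP and 11.8 ± 1.52 CPM in radial glia (log2 −2.03 ± 0.20, edgeR adjusted p = 4.98e-09). ACSBG1, an acyl-CoA synthetase, had a log2 difference of −2.30 ± 0.26 (edgeR adjusted p = 5.65e-08), and TNC −0.83 ± 0.15 (adjusted p = 3.69e-05). The protein-coding promoters with the smallest p, a set picked after the values were seen, also included KBTBD12 (−2.27), BBOX1, a carnitine synthesis enzyme (−2.54), GSX1, a homeobox factor (−2.0), and ATP10B (−2.33).

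At other genes with members the promoter differed less. SOX2 was lower in bIP (log2 −0.64 ± 0.15, edgeR adjusted p = 0.000618) and lower still in N (log2 −2.45 ± 0.17, adjusted p = 3.79e-12). GLI3 had −0.38 ± 0.15 in bIP (edgeR adjusted p = 0.0392) and FGFR2 −0.71 ± 0.14 (adjusted p = 0.000177). The promoters of TTYH1 (log2 −0.03, edgeR adjusted p = 0.905), PTPRZ1 (−0.06, adjusted p = 0.775), SFRP1 (−0.09, adjusted p = 0.691), AMOTL1 (−0.02, adjusted p = 0.938) and RBPJ (0.06, adjusted p = 0.813) did not pass between bIP and radial glia, nor did ETV5 (−0.17, adjusted p = 0.406) and GAS1 (0.05, adjusted p = 0.824), which have 3 members each. LAMB1, a laminin chain with 1 member, was higher in bIP (log2 0.75 ± 0.16, edgeR adjusted p = 0.000306).

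By list, the promoters that passed in bIP against radial glia were 0 higher and 10 lower of 12 basal radial glia genes (median log2 −0.80), 0 and 7 of 12 shared radial glia genes (−0.51), and 0 and 14 of 26 signalling genes (−0.38). They were 1 higher and 11 lower of 22 matrix and adhesion genes (−0.38), 2 and 10 of 16 glial lineage genes (−0.61), and 0 and 16 of 38 radial glia transcription factors (−0.22). The Notch pathway had 2 higher and 0 lower of 11, the Hippo pathway 0 and 2 of 8, neuron genes 9 and 4 of 19 (0.31) and intermediate progenitor genes 12 and 0 of 18 (0.91). Fitted to regions of at least 10 CPM in 2 libraries, more promoters of several lists were lower in bIP: 11 of 12 shared radial glia genes, 22 of 26 signalling genes, 19 of 22 matrix and adhesion genes, 24 of 37 radial glia transcription factors, 6 of 7 Hippo and 5 of 11 Notch pathway genes. In N the counts were 0 higher and 11 lower of 12 basal radial glia genes, 0 and 11 of 12 shared radial glia genes, 0 and 30 of 38 transcription factors, and 8 and 4 of 18 intermediate progenitor genes. The median over all promoters was −0.05 in bIP and −0.16 in N.

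The promoters with the smallest p were mostly those of pseudogenes and non-coding genes. Those of RPL21P93 (log2 −2.75), AC018767.1 (−3.59), RPL7AP38 (−3.29) and AC110792.3 (−3.05) were lower in bIP than in radial glia, and those of AC005909.1 (3.21), RN7SKP11 (2.73), MIR4275 (3.20), HMGA1P6 (2.50) and RN7SL690P (2.55) higher. Of coding genes, SORBS2, an adapter of actin structures, was higher in bIP at 46.3 ± 3.74 CPM, against 11.5 ± 1.71 CPM in radial glia (log2 2.03 ± 0.16, edgeR adjusted p = 1.8e-10). In N against bIP the promoters of SLC8A1, a sodium and calcium exchanger (log2 3.76), and TENM2, a synaptic adhesion molecule (2.59), were higher, and those of LINC02233 (−3.50) and MIR4275 (−3.54) lower. SLC8A1 held 29.4 ± 7.05 CPM in N and 2.09 ± 0.535 CPM in bIP, and TENM2 held 12 ± 0.738 CPM in N and 1.90 ± 0.351 CPM in bIP.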

How the data were processed

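Libraries were sequenced and processed by the authors, with bcl2fastq 2.20.0 and MACS2 named in the submitters' processing notes; no source used here names the aligner. The deposited table holds raw counts per region, with gorilla positions in gorGor6 and the listed gene and distance, per the file headers. The deposited peak sets carry a score, a fold enrichment and a −log10 p per peak, per the file layout; only their positions were used. Counts per region were read for 14 libraries of 12836073 to 26661992 counts. A count of 3 is 0.113 to 0.234 CPM, which covers counting error only, as no molecular identifiers are described for these PCR-amplified reads.

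Regions passing filterByExpr (200931) were fitted with edgeR 4.0.16 (R 4.3.3, limma 3.58.1) by quasi-likelihood, with TMM scaling and terms for cell type and library series over all 14 libraries, and p adjusted by Benjamini-Hochberg over all regions at 0.05. The series contrasts used a mean for each cell type and series, and readings in a single series were fitted to its libraries alone. The model and its steps were checked on simulated counts. That check set no required recovery for bRG against aRG, so it gives no assurance that differences there would be found. The promoter region of a gene is its region of highest mean CPM at a listed distance of at most 1000 bp, and protein-coding names come from RefSeq (assembly NHGRI_mGorGor1-v2.1_pri), used for names only. Alternatives included DESeq2 1.42.0, other filters and each library left out. Tables were handled with Python 3.11.15, pandas 2.3.3 and scipy 1.17.1.

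Members, gene lists and tests were chosen with earlier results of these data known. Named members are the 12 of highest radial glia level, the leading genes of each list, those of smallest p in each contrast and those at the edges of the rule. Named promoters are the 8 lower and 5 higher in bIP against radial glia, and 4 each way in N against bIP, of smallest p. Loci, runs, protein-coding promoters and places that differ between series were chosen after values were seen.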

Additional observations from a re-analysis of the deposited data

Results flagged for a closer look

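Of 70 groups of 4 or 5 libraries examined, 2 had a library far from the others, where chance gives about 1 in 20. The share of counts in the distal regions was 1.02% in bIP replicate 5, the lowest bIP library, and its gap to the next was 0.725 of the group's range. At the HMGA1P6 promoter bIP replicate 2 was the lowest at 7.69 CPM, with a gap of 0.822 of the range, while the other bIP libraries held 9.40 to 9.77 CPM.

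The contrast of the second with the first library series differed between bIP and N by edgeR's test of the difference: it was lower in bIP than in N at 370 of the members (5.25%) and higher at 9 (0.128%), beside 4.01 and 4.32% of all regions. Leaving out single libraries moved the lower count between 49 and 1472, and without N replicate 3 there were 205 lower and 244 higher. The rule used the means over these libraries, so this is no independent support for a difference.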

How the results depend on the processing

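Each library was left out in turn. Members lower in the second series of bIP then numbered 176 to 1714 and higher ones 35 to 261. In N, 28 to 859 were lower and 82 to 884 higher. For the difference between these contrasts 49 to 1472 were lower and 4 to 244 higher. The rule itself gave 5703 regions without bIP replicate 5 and at most 7706.

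Fitted to regions of at least 10 CPM in 2 libraries, 25 members were higher in the second series of bIP, 26 lower and 196 higher in that of N, and 2 higher in the difference. The promoters of member genes were then 97 higher in bIP than in radial glia, 542 lower and 243 higher in N than in radial glia, and 286 lower in N than in bIP. This filter tests fewer regions, 2870 of the members and 1134 of these promoters, so its counts do not compare directly with those of the main fit. The shares of all regions called in it are not given here. DESeq2 called 199 members higher in the second series of N and 207 lower in the difference; the cause was not tested. With the second series only, which has fewer libraries, 383 of 2025 promoters were lower in bIP than in radial glia. With the nearest protein-coding promoter as a region's gene, chosen after seeing the data, 2558 promoters were tested. Of these, 127 (4.96%) were higher in bIP and 237 (9.27%) in N than in radial glia, and 213 (8.33%) higher in N than in bIP. For coding promoters nearest only to other distal radial glia regions the shares were 7.78, 11.4 and 7.75%.

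A 2-fold margin gave 15900 regions, a 4-fold margin 2970 and a minimum of 5 CPM 4673. No label ties replicate numbers across groups, and not every same-numbered pair correlated over 0.1. Deviations of same-numbered libraries correlated at 0.0 to 0.53 within a series (median 0.26) and −0.37 to 0.15 across series (0.04), beside −0.2 to 0.58 (0.16) and −0.6 to 0.13 (−0.15) for other numbers. With the replicate block in place of the series term, 28 of 7044 members were lower and 12 higher in bRG than in aRG. The share of all regions called in that fit is not given here, so these counts are not read as a trait of the members. The promoter counts stayed within 1.5 times. The balance of lower and higher calls turned for N against bIP promoters in the 10 CPM fit (286 lower, 383 higher), for the series contrast in bIP without bIP replicate 5 (176 and 223) and, without N replicate 3, for that in N (859 and 201) and for the difference (205 and 244). The regions and promoters named for their p kept their direction and side of the threshold in all 769 comparisons made. Low counts in N limit what can be told at the weakest members. A pair of bRG libraries, with only aRG replicate 3 in the same series, limits the comparison with aRG.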
